A study of Mus musculus with 4 samples.

Results

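The cells described here, named duct cells of mouse salivary glands, carried RNA of *Slc13a2* or *Slc9a3*. They were selected on measured counts: a barcode was taken when it held at least 2 unique molecular identifiers (UMIs) of the 2 genes together, at most 1 UMI of *Ascl3* and *Foxi1* together, less than 30% of its UMIs from *Mucl2* and no UMI of *Ptprc*. Of 15707 barcodes in the matrix, 148 met the rule (0.942%, exact binomial 95% interval 0.797 to 1.11). The single-cell RNA sequencing was done on 2 salivary glands, the submandibular (SMG) and the sublingual (SLG), of untreated wild-type female C57BL/6N mice aged 6 to 8 weeks. The labels give 4 samples of this 1 group, and 1 pooled matrix with 1 barcode suffix holds them, so no cell could be tied to an animal or to a gland. All values therefore describe 1 sample without an estimate of the spread between animals, no test was run, and the intervals cover counting error only. The labels speak of 2 mice and the study's methods give another number.

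The striated and excretory ducts of salivary glands take sodium and chloride out of the primary saliva, whereas intercalated ducts join the acini to them. *Slc13a2* encodes NaDC1, an apical carrier that brings dicarboxylates such as succinate and citrate into the cell together with sodium. *Slc9a3* encodes NHE3, an apical exchanger of sodium for protons, best known from the kidney tubule and the intestine. *Esp4* belongs to a mouse family of peptides secreted by exocrine glands. Other duct cells are known by glandular kallikreins, or by *Ascl3* and *Foxi1*, transcription factors of duct progenitors and of ionocytes.

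*Slc13a2* (ENSMUSG00000001095) lies at chr11:78397087-78422217 on the minus strand of GRCm38, which is mm10, and *Slc9a3* (ENSMUSG00000036123) at chr13:74121457-74169442 on the plus strand, both protein-coding in GENCODE M21. *Slc13a2* overlaps 1 antisense gene, *Slc13a2os*, and *Slc9a3* overlaps none. Their promoters are shown because the pair defines the cells. Each window runs from 250 bases before to 50 bases after the start in RefSeq on GRCm38.p6, written 5′ to 3′ on the gene's strand. Capitals mark GGAAG, the core that ETS factors such as Ehf and Elf5 bind with 1 flanking base, and the TATA-box forms TATAAA and TATATAA, each on either strand. The windows are chr11:78422185-78422484 (minus strand) and chr13:74121163-74121462 (plus strand).
Slc13a2: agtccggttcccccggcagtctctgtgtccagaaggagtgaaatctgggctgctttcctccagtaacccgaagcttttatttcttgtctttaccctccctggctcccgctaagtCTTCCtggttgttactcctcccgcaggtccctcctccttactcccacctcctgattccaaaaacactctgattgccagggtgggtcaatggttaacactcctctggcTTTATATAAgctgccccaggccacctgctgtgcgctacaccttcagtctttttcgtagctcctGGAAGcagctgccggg
Slc9a3: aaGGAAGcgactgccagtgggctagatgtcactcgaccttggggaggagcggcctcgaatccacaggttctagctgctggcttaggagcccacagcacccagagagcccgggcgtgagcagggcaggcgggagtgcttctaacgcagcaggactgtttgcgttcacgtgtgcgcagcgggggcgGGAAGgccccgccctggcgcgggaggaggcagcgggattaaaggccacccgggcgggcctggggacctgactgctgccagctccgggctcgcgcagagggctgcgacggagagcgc
The *Slc13a2* window held TATATAA on both strands and TATAAA on the opposite strand, in 1 overlapping stretch that began 29 bases before the start, and it held GGAAG at 2 places. The *Slc9a3* window held GGAAG at 2 places and neither TATA form. Of 32851 promoter windows of this length, 71.4% held GGAAG, 13.6% TATAAA and 3.24% TATATAA, so GGAAG is common. The GC content was 54.3% for *Slc13a2* and 68.7% for *Slc9a3*, beside a median of 52.7%.

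The rule acts on few molecules. The 2 genes together gave between 2 and 8 UMIs per cell with a median of 2. *Slc13a2* had 202 UMIs, or 2.24 per 10000 UMIs (exact Poisson 95% interval 1.94 to 2.57), and *Slc9a3* had 227, or 2.51 (2.20 to 2.86). Both genes were seen in 83 cells, *Slc13a2* alone in 32 and *Slc9a3* alone in 33, and in 32 of the cells with both each gene had exactly 1 UMI. Within the same other limits, 174 barcodes held 1 UMI of the pair and stood just outside, and 78 held 2 and stood just inside. Without the other limits 184 barcodes had at least 2 UMIs of the pair. Of these, 36 were left out: 7 for *Ascl3* and *Foxi1*, 21 for *Mucl2* and 11 for *Ptprc*, some for more than 1 reason.

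The selected cells were deep, with a median of 5034 UMIs (range 1389 to 29353) and 1863 genes. They were set beside 4 populations under the same *Mucl2* and *Ptprc* limits. All other cells numbered 7414 (median 2407 UMIs). The *Ascl3*/*Foxi1* duct cells, with at least 2 UMIs of those genes, numbered 1195 (median 3034). The kallikrein-rich duct cells, with at least 1% of UMIs from *Klk1* and *Klk1b* genes, numbered 1518 (median 2307). The other *Krt7*/*Krt19* cells had at least 2 UMIs of those keratins, at most 1 UMI of *Krt5* and *Krt14* together and none of the other signs. They numbered 255 (median 2459), and some of them had *Esp4* while others had genes of the *Ascl3*/*Foxi1* cells. These 3 duct groups were each chosen on their own genes and on at most 1 UMI of the selecting pair, so differences in those genes are fixed by the choice. A group of 486 immune cells, with at least 2 UMIs of *Ptprc* and no keratin UMI, gave the level of free RNA.

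Markers of epithelium and of ducts were found in the selected cells, with an exception for *Krt19*. *Krt18* was found in 99.3% of the 148 cells at 34.7 UMIs per 10000, *Krt8* in 95.3% at 21.0, the adhesion molecule gene *Epcam* in 95.9% at 11.6, *Krt7* in 64.2% at 3.41, *Elf5* in 60.1% at 1.98 and *Cldn4* in 57.4% at 3.13. *Krt19* had 11 UMIs in 1.4% of the cells. In the immune cells *Krt18* is at 0 by the choice of those cells, and *Epcam* stood at 0.167. *Krt7* stood higher in the *Ascl3*/*Foxi1* cells (5.87) and the kallikrein-rich cells (4.05), whereas *Krt18* (15.6 and 16.9) and *Krt8* (7.15 and 9.73) stood lower there. Whether these markers set the selected cells apart from other gland epithelium was not tested.

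Acinar products were measured in the selected cells and in the immune cells. *Mucl2*, *Scgb1b27* and *Pip* were found in every selected cell, *Bpifa2* in 54.1%, *Muc19* in 18.9% and *A2ml1* in 7.43%. *Mucl2* had a median of 210 UMIs per selected cell and 114.5 per immune cell (means 295 and 241), *Scgb1b27* 43 and 23 (means 61.2 and 53.6) and *Pip* 9 and 3 (means 25.6 and 6.79). Secretory acinar genes together had a median of 394.5 UMIs per selected cell and 176 per immune cell, where the median depths were 5034 and 2048.5 UMIs. The 3 demilune cell protein genes, *Dcpp1*, *Dcpp2* and *Dcpp3*, had a median of 20.5 UMIs per selected cell and 15 per immune cell. Of their 26880 UMIs in the selected cells, 21708 came from 1 barcode, the deepest, in which they made up 74.0% of all UMIs, and which had 2 UMIs of *Slc13a2* and 2 of *Esp4*. Secretory acinar genes together took 12.4% of UMIs in the selected cells, 53.3% in all other cells, 16% in the *Ascl3*/*Foxi1* cells, 25% in the kallikrein-rich cells and 15.2% in immune cells. These shares enter the totals of all ratios. The median ratio of the genes compared was 2.08-fold over all other cells, 1.14-fold over the *Ascl3*/*Foxi1* cells, 1.55-fold over the kallikrein-rich cells and 1.20-fold over the other *Krt7*/*Krt19* cells. Ratios below are to be read against these medians.

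*Esp4* (ENSMUSG00000095540, chr17:40598594-40602618, plus strand) had the highest ratio over all other cells among the genes that the rule did not use and that had at least 50 UMIs in the selected cells and were found in at least 10% of them, and this was known when the cells were chosen. *Slc34a2*, with 42 UMIs, was below that minimum and had a ratio of 26.1-fold (log2 4.70, 95% interval 4.099 to 5.296). *Esp4* had between 0 and 20 UMIs per selected cell with a median of 4, and 87.8% of these cells had at least 1. Its level was 8.11 UMIs per 10000 (7.54 to 8.72), beside 0.374 in all other cells, 0.105 in the *Ascl3*/*Foxi1* cells, 0.201 in the kallikrein-rich cells, 2.88 (2.52 to 3.27) in the other *Krt7*/*Krt19* cells and 0.0500 in immune cells. The ratio was 21.7-fold over all other cells (log2 4.44, 95% interval 4.31 to 4.57). With every cell thinned to 1000 UMIs, 56.1% of the selected cells (47.7 to 64.2) had *Esp4*, beside 16.9% (12.5 to 22.0) of the other *Krt7*/*Krt19* cells, 2.0% of the kallikrein-rich, 0.3% of the *Ascl3*/*Foxi1* and 0.4% of the immune cells. *Esp4* was thus at background in the *Ascl3*/*Foxi1* cells and above it in the selected cells at equal depth.

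*Esp4* was not confined to the selected cells. Within the other limits 347 barcodes had at least 2 UMIs of *Esp4*. Of these, 122 were selected, which is 35.2% of the *Esp4* barcodes and 82.4% of the selected cells. Another 94 had 1 UMI of the pair and 131 had none, the last at a median of 2649 UMIs. A second member of the family, *Esp18* (chr17:39406359-39410992, plus strand), reached 4.48 per 10000 (4.06 to 4.94) but in only 43.9% of the cells, with a median of 0 and a highest value of 23 UMIs. It stood at 0.488 in the kallikrein-rich cells, 0.223 in the *Ascl3*/*Foxi1* cells and 2.69 in the other *Krt7*/*Krt19* cells. *Esp8* had 3 UMIs in the selected cells, and 12 further family members in the files had none. In the annotation no 90-base window in the last 300 bases of *Esp4*, *Esp18*, *Slc13a2* or *Slc9a3* transcripts was shared with another gene.

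The genes named in the next paragraphs were also present just below the threshold. From 0 to 1 UMI of the pair, the *Esp4* level went from 0.239 to 6.99, and it was 7.67 at 2 UMIs, 9.17 at 3 and 7.86 at 4 or more. *Gjb2* went from 0.203 to 3.48, 3.48, 5.96 and 6.38, and *Car2* from 0.244 to 3.73, 4.80, 6.13 and 6.06. The step from none to 1 UMI was thus larger than any later one, and the barcodes with 1 UMI resembled the selected cells in these genes. The 6038 barcodes with none were all the others within these limits, of mixed cell types, with *Dcpp3* at 2474 and *Dcn* at 3.01 per 10000. The barcodes with 1 UMI had more *Klk1*, at 57.5 per 10000 against 36.3, 9.26 and 10.7 in the 3 steps above, and a lower median depth of 2645.5 UMIs against 3701.5, 5080.5 and 7443.5. The part of depth in these steps was not tested.

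**Figure D1:**
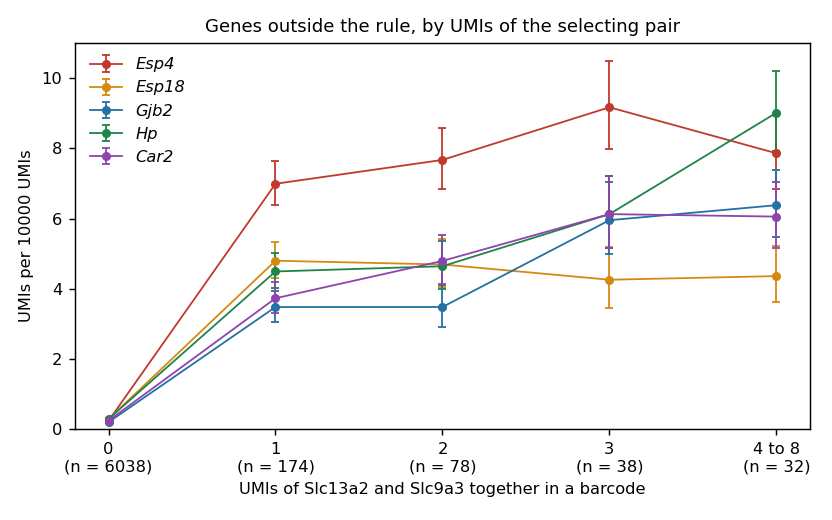
Level of 5 genes that the rule did not use (y axis, UMIs per 10000 UMIs) by the UMIs of *Slc13a2* and *Slc9a3* together in a barcode (x axis), within the same limits on *Ascl3*, *Foxi1*, *Mucl2* and *Ptprc*. Points are summed levels with exact Poisson 95% intervals, n is the number of barcodes, and each gene stood under 0.3 at 0 UMIs and above 3 from 1 UMI on.

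Among genes with at least 50 UMIs in both groups together and 10 in the higher, 768 of 11472 (6.69%) were at least 4-fold higher in the selected cells than in all other cells, and 789 (6.88%) at least 4-fold lower. Against the *Ascl3*/*Foxi1* cells 175 of 8105 (2.16%) were higher by this measure and 278 (3.43%) lower. Against the kallikrein-rich cells these were 218 of 7224 (3.02%) and 201 (2.78%). Against the other *Krt7*/*Krt19* cells only 23 of 4147 (0.555%) were higher and 54 (1.30%) lower. These splits depend on the share of acinar RNA. With secretory acinar genes left out of the totals, 126 genes were higher and 1067 lower against all other cells, and 157 and 229 against the kallikrein-rich cells. With ratios divided by their median, the numbers were 88 and 1125, and 97 and 302.

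The leading genes described next, beside *Esp4* and *Esp18*, had at least 50 UMIs in the selected cells and the highest ratios over all other cells. *Gjb2*, which encodes the gap junction protein connexin 26, had 0 to 14 UMIs per cell (median 2), a level of 5.0 (4.55 to 5.49) against 0.266 in all other cells and 1.67 in the other *Krt7*/*Krt19* cells, and a ratio of 18.8-fold over all other cells. *Car2*, a cytosolic carbonic anhydrase, had 0 to 14 UMIs (median 3) and stood at 5.52 against 0.325. Immune cells also had *Car2*, at 1.42. *Hp*, the haemoglobin-binding haptoglobin, had 0 to 38 UMIs (median 2) and stood at 6.37 against 0.364. *Ccnd1*, a cyclin of the G1 phase, stood at 6.19 against 0.418, *Edn1*, which encodes endothelin 1, at 4.84 against 0.388, and *Ano1*, a calcium-activated chloride channel, at 2.04 against 0.145. Lower in level were the kinase gene *Dclk1* (1.51 against 0.0815), the aldehyde oxidase gene *Aox3* (1.25 against 0.0684), the fatty acid desaturase gene *Fads2* (1.05 against 0.0604), *Pir* (0.797 against 0.0369), *Enpp3* (0.875 against 0.0586), the organic anion carrier gene *Slco1a5* (0.742 against 0.0663) and the cytokine gene *Il34* (0.609 against 0.0562). The remaining leading genes were *BC006965*, *Gpc6*, *Ank*, *Rhov*, *Plppr4*, *Adgrg6*, *Ecrg4* and *Pcp4*. The last 2 belonged to few cells, since *Ecrg4* was found in 10.1% and *Pcp4* in 11.5% of the selected cells. The other *Krt7*/*Krt19* cells had *Edn1* at 2.10, *Hp* at 1.93, *Car2* at 1.71, *Ccnd1* at 1.33, *Ano1* at 0.536 and *Dclk1* at 0.451. The leads of these genes over those cells were thus much smaller than over all other cells.

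**Figure D2:**
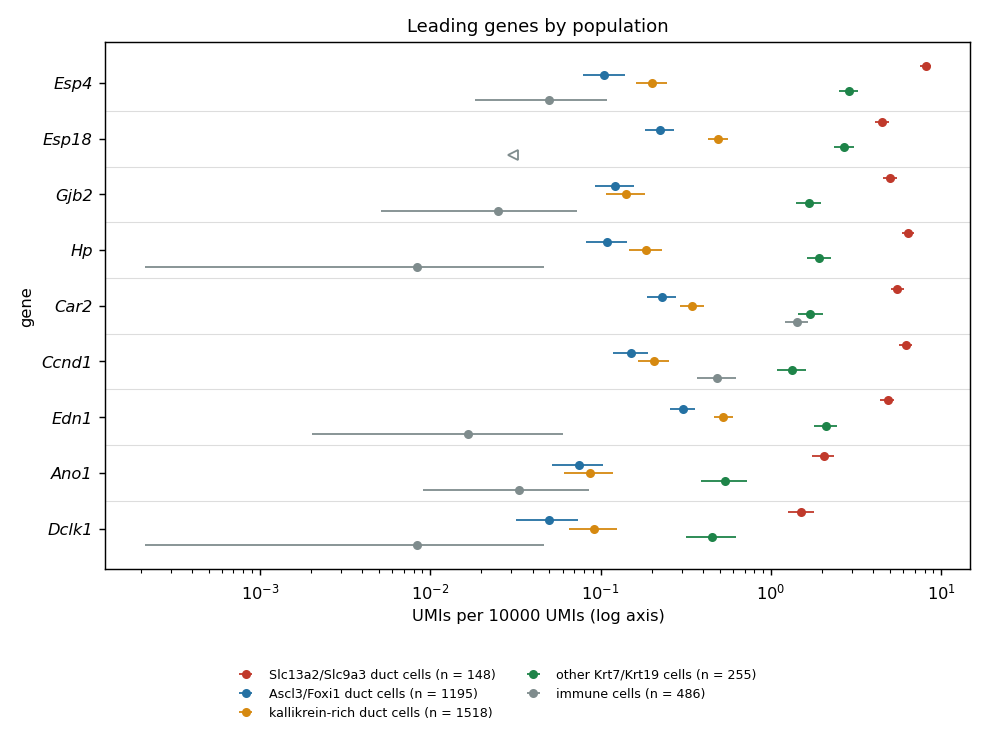
Levels of 9 leading genes (x axis, UMIs per 10000 UMIs, log axis) in the *Slc13a2*/*Slc9a3* duct cells, 3 other duct populations and immune cells, with exact Poisson 95% intervals. An open triangle marks the upper limit where no UMI was counted, and the selected cells stood highest for all 9 genes, with *Esp4* at 8.11 against 2.88 in the next population.

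The lowest ratios against all other cells were those of *Klk1b22* and *Klk1b4*, of the haemoglobin genes *Hbb-bs* and *Hba-a1*, of *Igkc*, *Cd83*, *Il1b*, *C1qc* and *Lyz2* of immune cells, and of *A2ml1* of mucous acinar cells. Each had 1 to 4 UMIs in the selected cells except *A2ml1*, which had 32 (0.354 per 10000 against 12.7).

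For the gene lists, ratios were divided by the median ratio of all genes compared, and a gene counted as higher or lower when it was at least 2-fold from that median. By this measure 6.84% of all genes were higher and 11.3% lower against the *Ascl3*/*Foxi1* cells, and 5.69% and 10.4% against the kallikrein-rich cells. A gene could enter through the other population alone, and such a gene had to be low in the selected cells.

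Most genes of sodium and chloride reabsorption that entered were lower in the selected cells, with *Ano1* and *Slc5a8* higher. The median over these genes, after division by the median ratio, was log2 -2.98 against the *Ascl3*/*Foxi1* cells and -3.02 against the kallikrein-rich cells. Genes such as *Scnn1a*, *Scnn1b* and *Scnn1g* entered through the other population alone and had to come out low. This median and the counts of lower genes are therefore partly fixed by the entry limits and do not measure the whole list. The summed level of the list, which has no entry limit and was not divided by the median ratio, was 11.25 per 10000 against 34.5 and 10.98. It was thus not lower than in the kallikrein-rich cells. *Slc12a2* alone made up 6.94 of the 11.25, and 5.50 of the 10.98 in the kallikrein-rich cells. The medians of the summed level over cells were 11.2, 38.1 and 6.20. Of 17 genes on the list, 13 entered against each population: 2 were higher and 10 lower than in the *Ascl3*/*Foxi1* cells, and 2 higher and 8 lower than in the kallikrein-rich cells. The epithelial sodium channel (ENaC) is the main route of sodium uptake described for salivary ducts. Its alpha subunit gene *Scnn1a* had 9 UMIs in all 148 cells, 0.0996 per 10000, against 1.53 in the *Ascl3*/*Foxi1* cells and 0.889 in the kallikrein-rich cells. The beta subunit gene *Scnn1b* had 4 UMIs, 0.0443 against 2.52 and 1.57, which was 57.0-fold lower (log2 -5.83, interval -7.71 to -4.47) and 35.4-fold lower. The gamma subunit gene *Scnn1g* had 2 UMIs. The chloride channel gene *Cftr* stood at 0.166 against 0.902 and 0.376. *Bsnd*, the subunit of basolateral chloride channels, had no UMI and was at least 49.8-fold lower than in the *Ascl3*/*Foxi1* cells, counting 3 UMIs as the limit that 0 allows. *Slc12a2*, the basolateral sodium, potassium and chloride carrier, was at 6.94 against 24.9 and 5.50. *Slc5a8*, a sodium-coupled monocarboxylate carrier, was at 1.17 against 0.165 and 0.230.

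The sodium pump drives this transport from the basolateral side, and FXYD proteins are its small regulatory subunits. The beta subunit gene *Atp1b1* was at 13.3 against 18.1 in the *Ascl3*/*Foxi1* cells and 15.5 in the kallikrein-rich cells. *Fxyd2* was at 4.79 against 93.9, 58.3 and, in the other *Krt7*/*Krt19* cells, 62.7, which made it 19.6-fold, 12.2-fold and 13.1-fold lower. *Fxyd3* went the other way, at 12.0 against 3.48, 3.39 and 7.85, and was found in 97.3% of the selected cells. Of 13 genes on the pump list, 7 entered against the *Ascl3*/*Foxi1* cells, with 1 higher and 3 lower, and 6 against the kallikrein-rich cells, with 1 higher and 3 lower.

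Carbonic anhydrases supply the protons that an exchanger such as NHE3 moves. Besides *Car2*, the membrane-bound *Car12* stood at 2.19 against 0.499 in the *Ascl3*/*Foxi1* cells and 0.898 in the kallikrein-rich cells. The bicarbonate carrier gene *Slc4a7* stood at 0.631 against 0.202 and 0.185. *Slc4a11* and the proton pump subunit gene *Atp6v0d2*, in contrast, stood at 0.0775 and 0.0553 against 4.69 and 3.35 in the *Ascl3*/*Foxi1* cells, each 60.6-fold lower. Of 30 genes for protons, bicarbonate and potassium, 22 entered against the *Ascl3*/*Foxi1* cells (4 higher, 11 lower) and 20 against the kallikrein-rich cells (4 higher, 10 lower). *Atp6v1b1*, a proton pump subunit gene of ionocytes, stood at 0.587 against 0.784 and 0.187 and so was not low with the others.

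**Figure D3:**
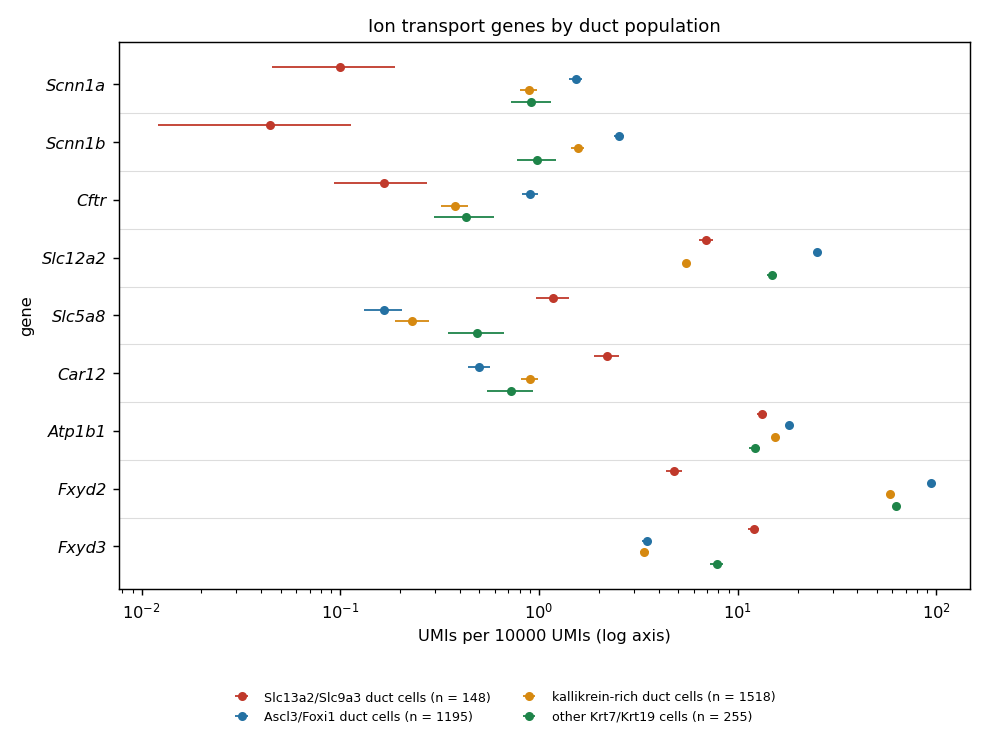
Levels of 9 ion transport genes (x axis, UMIs per 10000 UMIs, log axis) in 4 duct populations, with exact Poisson 95% intervals. *Scnn1a*, *Scnn1b*, *Cftr* and *Fxyd2* were lowest in the selected cells, and *Slc5a8*, *Car12* and *Fxyd3* highest.

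NHE3 is held at the apical membrane by scaffold and linker proteins. Of 12 genes for such partners, 9 entered against the *Ascl3*/*Foxi1* cells (2 higher, 1 lower) and 8 against the kallikrein-rich cells (2 higher, 1 lower). The 2 higher genes were the same in both, *Dpp4*, a membrane peptidase, at 0.609 against 0.0887 and 0.185, and the scaffold gene *Shank2*, at 0.542 against 0.233 and 0.128. The scaffold gene *Slc9a3r1* (1.27), the linker gene *Ezr* (1.34) and the cofactor gene *Chp1* (1.25) were measured in 44.6% to 50% of the cells, whereas *Pdzk1* had no UMI. The mineralocorticoid receptor gene *Nr3c2* stood at 0.210, and *Hsd11b2*, which protects that receptor from cortisol and corticosterone, had 1 UMI. Of 13 genes of this pathway, 11 entered against each population, and in both 0 were higher and 2 lower.

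No other member of the *Slc13* family had a UMI in the selected cells, with *Slc13a1*, *Slc13a3*, *Slc13a4* and *Slc13a5* all looked for. Of 32 listed genes that carry or handle citrate and dicarboxylates, 24 entered against each population, and 0 were higher and 7 lower in both. RNA of the mitochondrial genome made up a median of 3.95% of UMIs, against 11.9% in the *Ascl3*/*Foxi1* cells and 9.02% in the kallikrein-rich cells. Other sodium-coupled carriers were present at low levels: *Slc5a1*, the glucose carrier SGLT1, at 0.520 against 0.00825 and 0.0251, and *Slc34a2*, a phosphate carrier, at 0.465 against 0.0103 and 0.00228, the last from 1 UMI (log2 ratio 7.67, interval 5.12 to 13.01).

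Glandular kallikreins and duct growth factors were low. *Klk1* stood at 21.6 UMIs per 10000, against 446 in the *Ascl3*/*Foxi1* cells and 19.0 in the other *Krt7*/*Krt19* cells, and at 11.1 in immune cells. The kallikrein-rich cells, which were chosen for it, had 1073. *Egf*, a growth factor gene, had 5 UMIs. Of 24 listed genes 17 entered against the *Ascl3*/*Foxi1* cells, with 0 higher and 16 lower. The *Klk1b* genes are near-identical copies, and reads of one may have been counted for another.

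Markers of intercalated ducts were present in a part of the cells. *Kit*, a receptor tyrosine kinase gene, stood at 1.75, against 1.34 in the *Ascl3*/*Foxi1* and 0.326 in the kallikrein-rich cells. *Gstt1* stood at 1.13 against 0.361 and 0.137, and *Nkd2*, an inhibitor of Wnt signalling, at 1.24 against 0.314 and 0.114. *Gfra3* had 27 UMIs, 0.299 against 0.00413 and 0.0137. Of 8 genes on the list, 5 entered against each population, with 3 and 4 higher and 0 lower. *Gstt1*, *Nkd2* and *Smgc* were higher against both, and *Kit* against the kallikrein-rich cells only. *Gfra3* was not among the genes counted as higher. *Smgc* stood at 205 against 8.86 and 15.3, but 30 cells held 98.4% of its UMIs. In the remaining cells described below, where the division limited *Smgc*, it stood at 1.15. *Kit* (2.17), *Gstt1* (1.48) and *Nkd2* (1.53) stayed higher there. The other *Krt7*/*Krt19* cells had similar levels of *Kit* (1.47, log2 ratio 0.25, interval -0.10 to 0.60) and *Gstt1* (0.853, log2 ratio 0.40, interval -0.05 to 0.86), whose intervals include equal levels.

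Several transcription factor genes were higher than in the *Ascl3*/*Foxi1* or kallikrein-rich cells, and several were lower. Of 46 genes on the list, 35 entered against the *Ascl3*/*Foxi1* cells, with 10 higher and 9 lower, and 34 against the kallikrein-rich cells, with 9 higher and 7 lower. Against the other *Krt7*/*Krt19* cells 28 entered, with only 1 higher (*Prlr*) and 3 lower (*Elf3*, *Esrra* and *Id3*). The values below are for the *Ascl3*/*Foxi1* and the kallikrein-rich cells. *Sox9*, of duct and progenitor cells in many glands, stood at 8.31 against 3.58 and 2.76. *Foxc1* stood at 4.24 against 0.910 and 0.857, *Runx1* at 2.58 against 0.437 and 0.786, *Ehf* at 6.85 against 3.01 and 2.06, and *Elf5* at 1.98 against 0.739 and 0.260. *Esrrg*, a nuclear receptor gene of mitochondrial metabolism, stood at 0.122 against 0.549 and 0.590, and its partner *Ppargc1a* at 0.908 against 2.27 and 1.67. Of the hormone receptor genes, *Prlr*, for prolactin, stood at 1.34 against 0.223 and 0.356.

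Among defence genes, *Wfdc18* was found in every selected cell, with 4 to 528 UMIs and a median of 99.5. Its level was 224 per 10000, against 13.1 in the *Ascl3*/*Foxi1* cells, 24.6 in the kallikrein-rich cells, 123 in the other *Krt7*/*Krt19* cells and 2.59 in immune cells. In all other cells it stood at 85.5, a ratio of 2.62-fold beside the median ratio of 2.08-fold. *Wfdc18* was the only one of 12 and of 13 defence genes that entered to be higher against the *Ascl3*/*Foxi1* and the kallikrein-rich cells, and 4 and 8 were lower. It was not among the genes counted as higher against all other cells or the other *Krt7*/*Krt19* cells. *Wfdc2*, of the same protein family, stood at 3.12 against 9.95 and 10.9, and *Cxcl17*, a chemokine-like gene of mucosal surfaces, at 6.63 against 2.91 and 3.19. *Duox2*, an oxidase that makes hydrogen peroxide, had no UMI and was at least 22.1-fold lower than in the kallikrein-rich cells.

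The 148 cells were not uniform. Apart from acinar products, *Smgc*, a secreted protein gene of developing acini and of intercalated ducts, had the largest spread, with a variance of 92.1 times the mean after thinning to 1000 UMIs. The *Dcpp* genes had higher ratios (116 to 197), with most of their UMIs in the barcode described above, and among the next were *Wfdc18* (17.4), *Klk1* (15.4) and the smooth muscle actin gene *Acta2* (13.6). *Smgc* was absent from 81 cells, and 30 cells with at least 1% of UMIs from it held 98.4% of its UMIs. *Smgc* overlaps *Muc19* on the same strand (chr15:91838265-91861438), but *Muc19* itself stood at 0.376 in the selected cells. Contractile genes (*Acta2*, *Cnn1*, *Myh11* and *Mylk*) had no UMI in 118 cells, and 17 cells with at least 5 UMIs held 96.7% of the 572 UMIs, 209 of them in 1 cell.

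**Figure D4:**
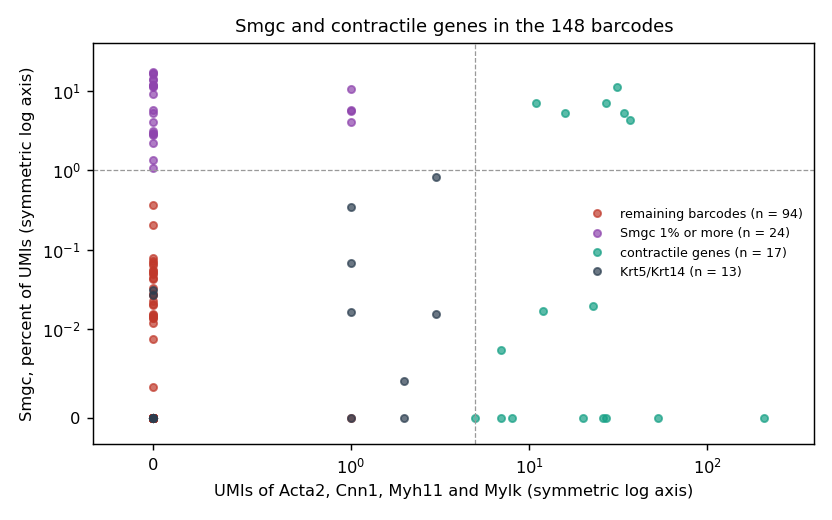
Each point is 1 of the 148 cells, with UMIs of 4 contractile genes on the x axis and the share of UMIs from *Smgc* in percent on the y axis, both on symmetric log axes, and dashed lines at 5 UMIs and 1%. Most cells lie near 0 on both axes, and 6 cells lie above both lines.

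The cells were divided on these genes after their values had been seen, so the divisions are a description. The 17 cells with contractile genes (median 8212 UMIs), 24 further cells with at least 1% *Smgc* (median 7606) and 13 further cells with at least 2 UMIs of the basal keratins *Krt5* and *Krt14* (median 12118) were deeper than the 94 remaining cells (median 3438). *Acta2* stood at 23.9 per 10000 in the first set and 0.0256 in the remaining cells, *Smgc* at 709 in the second set and 1.15, and *Krt14* at 6.81 in the third set and 0.0256. The third set also had *Dcn*, a fibroblast gene, in 92.3% of its cells at 11, against 0.409 in the remaining cells. *Ecrg4* was found in 82.4% of the contractile set and in none of the remaining cells. In the medians of these sets, depth and the genes of these other cell types moved together. The 94 remaining cells still held the deepest barcode, with 29353 UMIs, described above for its *Dcpp* RNA, and *Dcpp3* stood at 286 per 10000 in them. They were thus not cleared of acinar RNA. Whether the barcodes held more than 1 cell was not tested.

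*Esp4* was found in all 4 sets. Its level was 11.8 (10.7 to 12.9) in the remaining cells, 6.17 in the *Smgc* set, 4.69 in the contractile set and 4.79 in the basal keratin set. *Car2* stood at 7.18, 3.53, 4.02 and 5.43, *Gjb2* at 6.13, 4.41, 4.82 and 3.15, and *Hp* at 8.48, 7.74, 2.54 and 2.97 in the same order. With the 94 remaining cells alone, the ratio of *Esp4* over all other cells was log2 4.98, the ratios of *Gjb2*, *Car2* and *Hp* were 4.52, 4.47 and 4.54, and *Fxyd2* and *Scnn1b* stayed lower than in the *Ascl3*/*Foxi1* cells (log2 -4.18 and -5.62). The 10 genes with the highest ratios over the other *Krt7*/*Krt19* cells were *Myh11*, *Tagln*, *Mylk*, *Acta2*, *Krt14*, *Pcp4*, *Myl9*, *Ecrg4*, *Tpm2* and *Krt5*. The choice of those other cells limited *Krt14* and *Krt5* in them. In the 94 remaining cells these 10 genes had between 0 and 3 UMIs each. The division itself kept *Myh11*, *Mylk*, *Acta2*, *Krt14* and *Krt5* low there, whereas it did not use *Tagln*, *Pcp4*, *Myl9*, *Ecrg4* and *Tpm2*.

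**Figure D5:**
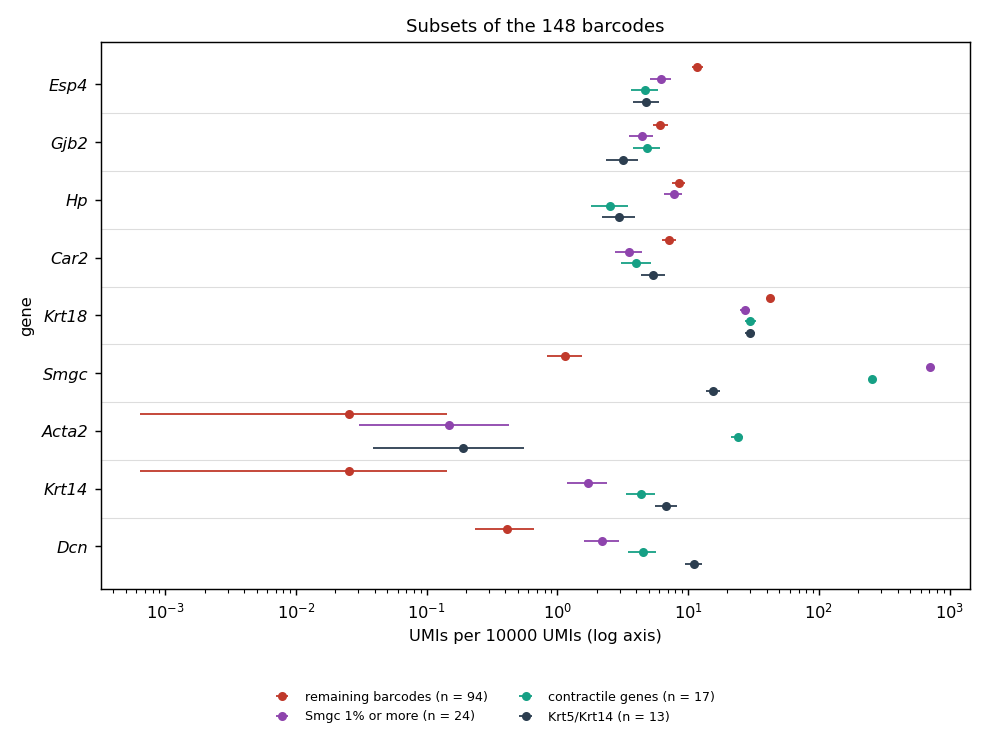
Levels of 9 genes (x axis, UMIs per 10000 UMIs, log axis) in 4 sets of the 148 cells, divided by *Smgc*, contractile and basal keratin genes, with exact Poisson 95% intervals. *Esp4*, *Gjb2* and *Car2* stood between 3 and 12 in every set, whereas *Smgc*, *Acta2* and *Krt14* marked the sets that were chosen for them.

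Cells with both genes of the pair and cells with 1 of them were compared side by side. *Esp4* stood at 10.3 in the 32 cells with *Slc13a2* alone, 5.62 in the 33 with *Slc9a3* alone and 8.48 in the 83 with both. *Klk1* stood at 13.3, 60.2 and 9.12, and *Fxyd2* at 6.28, 10.9 and 2.09, so that the cells with *Slc9a3* alone had the most of both. Median depth was 3424.5, 5845 and 5631 UMIs. The 18 cells without a UMI of *Esp4* had less *Car2* than the rest of the selected cells (2.39 against 5.92), but *Gjb2* was at 4.39 against 5.08 and *Hp* at 6.98 against 6.29. The deepest of these 18, from the basal keratin set, held 24263 of their 100329 UMIs, and others were of the contractile and *Smgc* sets. *Car2* was lower in those 3 sets than in the remaining cells, and their part in the difference was not tested.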

How the data were processed

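Droplet-based single-cell RNA sequencing was done on SMG and SLG together. The authors deposited 1 matrix of raw UMI counts per gene and barcode, with 4 samples pooled. The submitters' processing notes name Cell Ranger 6.0.1, Seurat 4.1.1 and mm10. The counts were not normalized, and all 15707 barcodes were kept with no filter and no doublet caller.

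UMIs were summed over each population and given per 10000 UMIs with exact Poisson 95% intervals. Shares have exact Clopper-Pearson intervals, and ratios exact conditional binomial intervals. For shares at equal depth each cell was thinned to 1000 UMIs (seed 1), and no cell was shallower. The counts of genes and the lists used genes with at least 50 UMIs in both groups together and 10 in the higher, without the 6 genes of the rule. The named genes were the 25 highest ratios over all other cells (at least 50 UMIs and 10% of cells), the 10 lowest (at least 1 per 10000 in the other population), the 10 extremes against each duct population, the 10 largest spreads and examples from 21 gene lists. The cells, lists and named genes were chosen with earlier results of these data known. The ratio and interval code was tested on simulated data. Python 3.11 was used with numpy, scipy and pandas. Some genes are not reported here. Positions are from GENCODE M21, matched by Ensembl identifier.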

Additional observations from a re-analysis of the deposited data

How the results depend on the processing

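The *Esp4* ratio kept its direction under every alternative that gave it a value. Under 19 alternatives, of 164 values, 97 stayed within 1.5 times the reported count or within its interval and 67 moved. Leaving out each sample was not possible, because barcodes could not be tied to samples, and no paired analysis was possible because there was 1 group. With at least 3 UMIs of the pair 70 cells were selected (*Esp4* log2 ratio over all other cells 4.20), with at least 4 UMIs 32 (3.93), with 1 UMI of each 83 (4.24) and with *Mucl2* under 10% 116 (4.61). At 4 UMIs the genes 4-fold higher and lower than in all other cells were 1311 and 1537, and 15 were higher than in the other *Krt7*/*Krt19* cells. With *Mucl2* under 50% those higher were 1170 and 50. The *Esp4* ratio and the genes higher than in all other cells were 3.99 and 286 without the deepest 5% of each population, 3.53 and 126 without secretory genes in the totals, 4.25 and 377 as a mean over cells (39 over the other *Krt7*/*Krt19* cells), 4.22 and 324 after thinning, and 3.39 and 88 over the median ratio.

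After thinning, 50 genes were higher than in the *Ascl3*/*Foxi1* cells, 87 higher and 131 lower than in the kallikrein-rich cells, and 3 higher and 22 lower than in the other *Krt7*/*Krt19* cells. Over the median ratio, 97 were higher and 302 lower than in the kallikrein-rich cells. At a kallikrein limit of 5%, 43 were higher and 82 lower than in the other *Krt7*/*Krt19* cells. With a minimum of 20 UMIs, 1357 were lower than in all other cells, and the higher and lower counts were 337 and 430, 395 and 327, and 76 and 111 against the 3 duct populations in the same order. With no minimum they were 1835 and 5668 against all other cells, then 1634 and 2863, 1733 and 2816, and 1686 and 1383. At 2-fold, 6102 were higher than in all other cells, and the others were 820 and 715, 1837 and 394, and 338 and 133. At 8-fold, 102 were higher than in all other cells, then 71 and 164, 66 and 110, and 12 and 32. Alternatives chosen after seeing the data were the division by the median ratio and the 94 cells below the limits on contractile, *Smgc* and basal keratin UMIs. Those 94 gave an *Esp4* ratio of 4.98, 1372 genes lower than in all other cells, 420 lower than in the *Ascl3*/*Foxi1* cells and 15 higher than in the other *Krt7*/*Krt19* cells. The thresholds, minimums and thinning change counts by their construction, and for the other alternatives the cause was not tested. Depth limits the rule itself, since a cell with few UMIs can miss 2 UMIs of a pair at a summed level near 5 per 10000.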

Other observations

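Immediate early and heat shock genes, which respond within minutes to stimuli and to tissue handling, were all detected in the *Slc13a2*/*Slc9a3* duct cells. *Fos* stood at 47.3 UMIs per 10000, against 35.1 in the *Ascl3*/*Foxi1* cells, 22.2 in the kallikrein-rich cells and 6.16 in immune cells. *Atf3* stood at 39.1 against 26.7 and 20.3, and *Egr1* at 25.7 against 14.6 and 9.42. All 20 listed genes were compared with both duct populations. Only 3 (*Nr4a1*, *Hspb1* and *Hsp90aa1*) were at least 2-fold above the median ratio against the *Ascl3*/*Foxi1* cells, and 2 (*Nr4a1* and *Hspb1*) against the kallikrein-rich cells, and 0 were as far below it.

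Tight junction and adhesion genes had a summed level of 33.2 per 10000, against 22.5 in the *Ascl3*/*Foxi1* cells, 19.5 in the kallikrein-rich cells and 29.8 in the other *Krt7*/*Krt19* cells. Of 20 listed genes, 16 entered against the *Ascl3*/*Foxi1* cells, with 1 higher (*Cldn12*) and 0 lower, and 15 against the kallikrein-rich cells, with 0 higher and 1 lower (*Ocln*). *Cldn3* stood at 4.85, *Cldn7* at 3.60 and *Cldn8* at 1.34. Of 18 genes for apical trafficking and the cytoskeleton, *Ceacam1*, an adhesion molecule, was higher against both populations, at 2.97 against 0.807 and 0.784, and *Tspan8* was lower, at 0.963 against 3.41 and 2.14.

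Genes of other cell types were also measured. Of 15 immune genes, 11 had a UMI in the selected cells, and the list summed to 1.83 per 10000, against 5.63 in the *Ascl3*/*Foxi1* cells and 6.65 in the kallikrein-rich cells. *Cd74* was the highest at 0.697, against 56.8 in immune cells. Of 13 endothelial and stromal genes all had a UMI, and *Dcn* made up 3.35 of their sum of 3.85, which was above the 1.19 of the *Ascl3*/*Foxi1* cells, the 1.79 of the kallikrein-rich cells and the 2.73 of immune cells. Of 10 ionocyte genes 7 had a UMI, with a sum of 0.908 against 12.6 in the *Ascl3*/*Foxi1* cells, 4.39 in the kallikrein-rich cells and 0.876 in immune cells. Against the *Ascl3*/*Foxi1* cells 9 immune, 3 endothelial and stromal and 8 ionocyte genes entered, with 0, 1 and 0 higher and 7, 1 and 7 lower. Against the kallikrein-rich cells these were 11, 6 and 7 genes, with 0, 1 and 1 higher and 11, 4 and 6 lower.

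Of 9 basal and myoepithelial genes, 6 entered against the *Ascl3*/*Foxi1* cells and 5 against the kallikrein-rich cells, and all of them were higher, in the cells with contractile or basal keratin genes described above. Of 11 keratins 8 and 9 entered, with 4 and 4 higher and 0 and 1 lower. *Krt17*, one of those higher in both, stood at 1.39 in all 148 cells and 0.0511 in the 94 remaining cells. Of 15 acinar genes 14 and 14 entered, with 1 higher in both, *Smgc*, and 4 and 12 lower. Of 24 further solute carrier genes 11 and 11 entered, with 3 and 1 higher and 5 and 6 lower. *Slc5a1* was higher in both.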
